A study of Mus musculus with 8 samples.

Results

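The switch that turns the GTPase RAS on and off is set by 2 kinds of protein, and the genes described here encode them: 5 GTPase-activating proteins (GAPs), *Rasa1*, *Rasa2*, *Rasa3*, *Rasal2* and *Nf1*; 4 guanine nucleotide exchange factors, *Rasgrp2*, *Rasgrp3*, *Sos1* and *Sos2*; and *Rasip1*, which belongs to neither kind. They were chosen by name from what their proteins do, at a time when other results of these data were known, and make up 10 of the 49315 genes with deposited counts. All 10 passed the filter on low counts, as did 16887 genes in all. In brain endothelial cells (ECs) of pups in which mutant *Map2k1* was induced in a portion of the ECs, 4 of the 5 GAP genes were higher than in wild-type ECs, with none lower. Of the 4 exchange factor genes 3 were lower, with none higher, and 1 of these 3 was *Rasgrp2*, whose product acts mainly on RAP1. By the same test, 21.5% of all genes tested were higher and 22.9% lower. The changes of the set were moderate, between 1.39-fold and 1.84-fold for the GAP genes that rose. None of the 10 genes passed a log2 fold change of 1 in either direction.

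RNA was sequenced from brain ECs of 4 mutant and 4 wild-type mouse pups at postnatal day 9, with 1 library per pup. Mutant pups were *R26* GT-*Map2k1*-GFP/+; *Tg-Cdh5CreER*+/−. In these pups the endothelial *Cdh5* promoter drives a Cre recombinase that tamoxifen activates, and recombination removes a stop cassette from the *Rosa* locus, after which a CAG promoter expresses a *Map2k1* cDNA carrying p.K57N, a constitutively active form, together with GFP. Whole litters received tamoxifen at postnatal day 1. Recombination reached only a portion of the ECs, so that each mutant library mixes recombined and unrecombined cells, and no group expressed a wild-type *Map2k1* cDNA in the same way. The controls are labelled wild type, but the title of 1 of the study's gene lists describes a control that carried *Tg-Cdh5CreER* and had received tamoxifen, and the effect of Cre itself was not tested. ECs had been drawn from digested brain with beads against CD31. In such bulk RNA, fewer cells of a type and less RNA per cell cannot be told apart.

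The libraries held between 24833373 and 34196955 counts in mutant and between 28146348 and 32208421 in wild-type ECs. *Map2k1*, the check of the labels, averaged 14620 ± 2851 normalized counts in the mutants and 1611 ± 116.2 in the wild types (SD, n = 4 each), and the groups did not overlap. Normalized counts are counts scaled to a common library size. The sum of 10 endothelial markers, in RPKM (reads per kilobase of exon, scaled to library size), ran from 3003 to 3607 in mutant and from 3008 to 3816 in wild-type libraries, with 3 of 10 higher and 3 lower. Those higher were *Cdh5*, *Emcn* and *Pecam1*, which encodes CD31, with log2 fold changes of 1.11, 0.82 and 0.53. Those lower were *Kdr*, *Cldn5* and *Tek*, at -0.59, -0.47 and -0.44. Markers of other cell types were also found. Red blood cell markers summed to between 109.5 and 358.6 RPKM in mutant and between 668.6 and 1163 in wild-type libraries, with 6 of 6 lower, oligodendrocyte lineage markers to between 8.306 and 14.71 and between 18.66 and 47.23, with 6 of 7 lower, and neuronal markers to between 4.202 and 5.85 and between 6.644 and 14.39, with 4 of 6 lower. Microglia and macrophage markers summed to between 43.25 and 143.3 RPKM in mutant and between 54.96 and 176.7 in wild-type libraries, with library 3 the highest of each group and 0 of 8 called. Of the remaining lists, 2 of 8 pericyte and smooth muscle markers and 2 of 4 fibroblast markers were higher, and 2 of 6 astrocyte markers were lower. The part of these cells in the differences below was not tested, except where a value is given.

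RAS proteins relay signals while they hold GTP. Exchange factors load GTP onto RAS, often after recruitment to an activated receptor, and GAPs make RAS hydrolyse it, which ends the signal. Active RAS engages RAF kinases, which phosphorylate MAP2K1 and its paralog MAP2K2, which in turn phosphorylate ERK, so that the mutant MAP2K1 of these mice lies downstream of RAS. Vessels are sensitive to this switch: loss of RASA1 causes capillary malformation-arteriovenous malformation in people, and neurofibromin, the product of *Nf1*, is lost in neurofibromatosis type I.

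Of the 10 genes, 7 passed an adjusted p of 0.05 (edgeR's quasi-likelihood test, adjusted by Benjamini-Hochberg over all genes tested), where 44.4% of all genes tested did so in either direction. The 4 genes that rose are read against 21.5% of all genes, and the 3 that fell against 22.9%. No gene of the set also passed an absolute log2 fold change of 1, which 14.0% of all genes did. In 7 of the 10 genes, the normalized counts of mutants and wild types did not overlap, compared with 42.5% of all genes. The median log2 fold change was 0.60 for the 5 GAP genes and -0.28 for the 4 exchange factor genes, beside -0.02 for all genes tested.

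**Figure D1:**
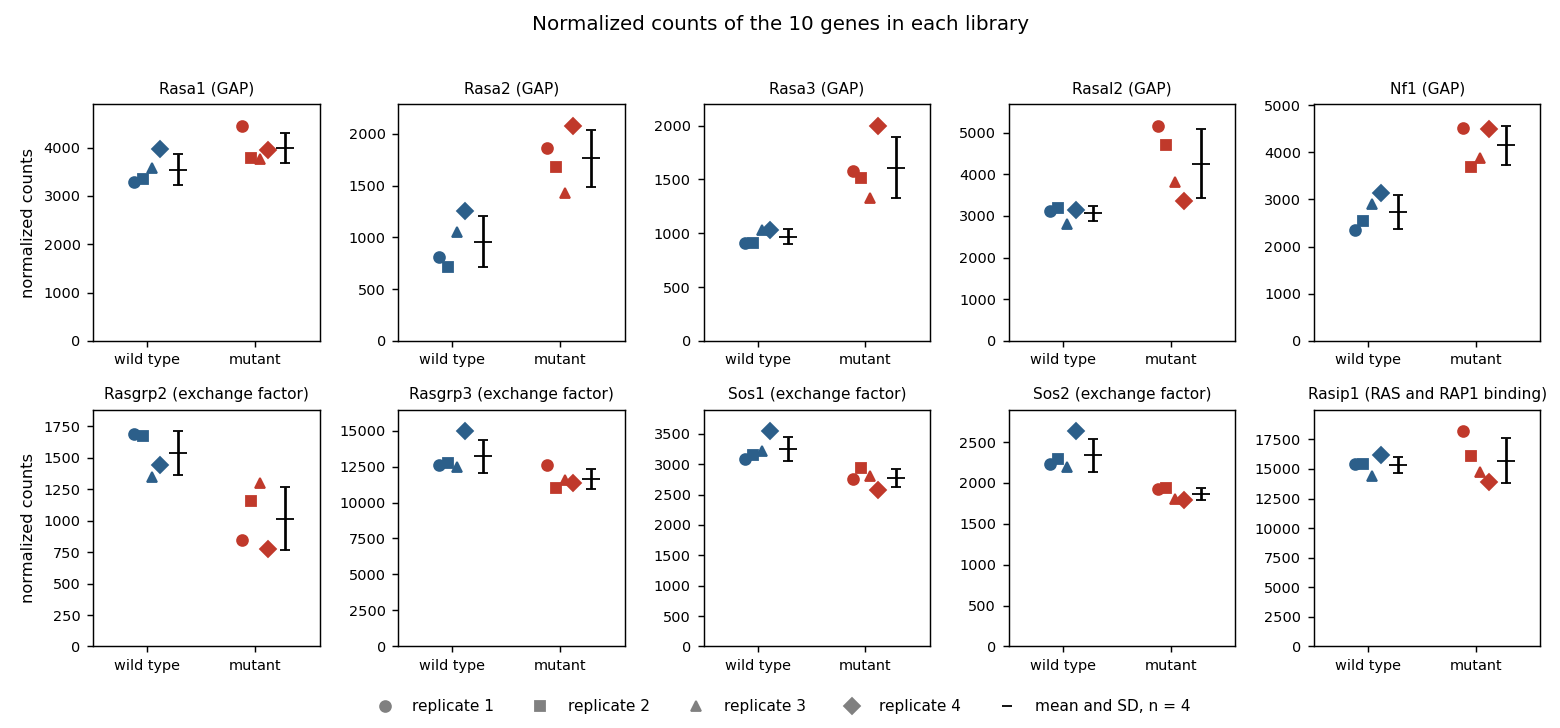
Normalized counts (vertical axes, each starting at 0) of the 10 genes in the 4 wild-type (blue) and 4 mutant (red) libraries, with the symbol giving the replicate number and the bars the mean and SD of each group. The mutant points lie above all wild-type points for *Rasa2*, *Rasa3*, *Rasal2* and *Nf1*, and below all of them for *Rasgrp2*, *Sos1* and *Sos2*, while the ranges of the groups overlap for *Rasa1*, *Rasgrp3* and *Rasip1*.

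The GAP genes lie on 5 chromosomes of GRCm38. *Rasa2* lies on chromosome 9 from 96539300 to 96631617, *Rasa3* on chromosome 8 from 13566948 to 13677603, *Rasal2* on chromosome 1 from 157135182 to 157412595, and *Rasa1* on chromosome 13 from 85214780 to 85289029, all on the minus strand. *Nf1* spans chromosome 11 from 79339693 to 79581612 on the plus strand, and its 59 merged exons are the most of the set. The promoters of the 4 GAP genes that rose are shown because these genes moved together, each as 300 bases read along the gene, from 250 before to 50 after a RefSeq start on GRCm38.p6. They are chr9:96631454-96631753 for *Rasa2*, chr8:13677538-13677837 for *Rasa3* and chr1:157412546-157412845 for *Rasal2*, all on the minus strand, and chr11:79339642-79339941 for *Nf1* on the plus strand. Capitals mark the letters CCGGAA, called the ETS letters here, which hold the shorter core bound by ETS factors, some of which ERK phosphorylates. They were searched on both strands (TTCCGG where they read on the other). The core alone was not searched, and windows without capitals may hold it.
Rasa2: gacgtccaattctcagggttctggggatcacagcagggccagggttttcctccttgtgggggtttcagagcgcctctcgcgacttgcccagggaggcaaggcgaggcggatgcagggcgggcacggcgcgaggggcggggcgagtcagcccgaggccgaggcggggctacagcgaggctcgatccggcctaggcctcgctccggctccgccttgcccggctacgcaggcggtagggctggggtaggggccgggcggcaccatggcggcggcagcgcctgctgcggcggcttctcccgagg
Rasa3: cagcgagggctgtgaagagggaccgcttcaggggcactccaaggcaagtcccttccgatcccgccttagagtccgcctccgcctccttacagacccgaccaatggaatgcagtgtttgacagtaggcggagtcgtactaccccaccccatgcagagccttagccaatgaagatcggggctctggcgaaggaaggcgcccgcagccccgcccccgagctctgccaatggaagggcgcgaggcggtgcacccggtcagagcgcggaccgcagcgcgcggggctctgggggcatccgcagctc
Rasal2: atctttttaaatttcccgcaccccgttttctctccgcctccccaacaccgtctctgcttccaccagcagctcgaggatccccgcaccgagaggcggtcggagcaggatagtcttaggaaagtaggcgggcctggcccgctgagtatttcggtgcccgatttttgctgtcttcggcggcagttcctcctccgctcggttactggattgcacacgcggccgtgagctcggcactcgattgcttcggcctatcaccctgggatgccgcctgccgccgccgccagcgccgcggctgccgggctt
Nf1: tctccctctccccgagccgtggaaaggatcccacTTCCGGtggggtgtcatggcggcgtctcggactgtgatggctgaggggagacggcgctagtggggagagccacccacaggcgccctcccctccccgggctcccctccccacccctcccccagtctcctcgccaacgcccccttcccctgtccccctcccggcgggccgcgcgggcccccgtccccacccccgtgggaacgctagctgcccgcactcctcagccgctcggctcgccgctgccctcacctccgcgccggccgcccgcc
Of these 4 windows only that of *Nf1* held the ETS letters, from 216 to 211 bases before the start on the opposite strand. The window of *Rasa1* held them from 55 to 50 bases before the start. The AP-1 letters TGANTCA, which share no stretch with the ETS letters and read the same on both strands, were in none of the 12 windows that RefSeq gives for the 10 genes.

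*Rasa2* had the largest change of the set. RASA2 is a GAP of the GAP1 family, which binds membrane lipids. The mutant libraries held 1865.1, 1676.3, 1433.9 and 2080.3 normalized counts of *Rasa2*, and the wild-type libraries 814.2, 717.1, 1056.5 and 1253.8. The lowest mutant library was above the highest wild-type library. *Rasa2* was 1.84-fold higher in mutant ECs (log2 fold change 0.88 ± 0.17, SE, 95% confidence interval 0.49 to 1.26), with an adjusted p of 0.00227 (edgeR's quasi-likelihood test). It was also the gene of the lowest level per length in wild-type ECs. Without wild-type library 4, which held the most *Rasa2* of its group, the log2 fold change was 1.03.

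*Rasa3* encodes another GAP of the GAP1 family, which acts on RAP1 as well as on RAS. Its normalized counts were 1580.2, 1517.1, 1327.6 and 1998.5 in mutant and 904.5, 905.1, 1028 and 1029.2 in wild-type libraries. The wild-type libraries lay close together, and mutant library 4 stood highest. *Rasa3* was 1.66-fold higher in mutant ECs (log2 fold change 0.73 ± 0.12, SE, 95% confidence interval 0.47 to 1.00, adjusted p = 0.000706, edgeR).

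Neurofibromin is a large GAP that SPRED proteins bring to the membrane. *Nf1* had 4503.8, 3693.2, 3878.5 and 4494.9 normalized counts in mutant libraries and 2340.5, 2548, 2911.9 and 3128.7 in wild-type libraries. Every mutant library exceeded every wild-type library. The fold was 1.52 (log2 fold change 0.60 ± 0.11, SE, 95% confidence interval 0.37 to 0.83, adjusted p = 0.00113, edgeR).

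*Rasal2*, a further RAS GAP, had 5168.5, 4697.2, 3808.7 and 3347.7 normalized counts in mutant and 3110.5, 3189, 2800.4 and 3143.5 in wild-type libraries. The groups did not overlap, though mutant library 4 was only slightly above the highest wild-type library. *Rasal2* was 1.39-fold higher in mutant ECs (log2 fold change 0.48 ± 0.12, SE, 95% confidence interval 0.20 to 0.75, adjusted p = 0.0107, edgeR). Of its exon bases, 1.776% also belong to 2810025M15Rik on the opposite strand, and reads of the shared stretch cannot be assigned to one of them without strand. This overlapping gene was itself higher in mutant ECs, with a mean of 2627 normalized counts against 1258 (log2 fold change 1.06, adjusted p = 4.88e-05, edgeR), and its part in the difference of *Rasal2* was not tested.

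*Rasa1* encodes p120 RasGAP, whose SH2 and SH3 domains bind phosphorylated receptors and DOK proteins. Its normalized counts were 4455.7, 3789.4, 3775.5 and 3952.6 in mutant and 3282.7, 3342.2, 3583.7 and 3979.7 in wild-type libraries. Mutant library 1 was the highest, and wild-type library 4 lay within the mutant range. The log2 fold change of 0.17 ± 0.08 (SE), with a 95% confidence interval of -0.01 to 0.36, did not pass the test (adjusted p = 0.122, edgeR). Without wild-type library 4 it was 0.23 with an adjusted p of 0.0475 by the same test, so that the call for this gene depends on 1 library.

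The exchange factor genes were *Sos1* on chromosome 17 from 80393752 to 80480453 and *Sos2* on chromosome 12 from 69583762 to 69681852, both on the minus strand, and *Rasgrp3* on chromosome 17 from 75435905 to 75529043 and *Rasgrp2* on chromosome 19 from 6399340 to 6415216, both on the plus strand. The promoters of the 3 genes that fell are shown for the same reason as those of the GAP genes, with the same window, build and capitals. They are chr17:80480404-80480703 on the minus strand for *Sos1*, chr12:69681803-69682102 on the minus strand for *Sos2*, and chr19:6401455-6401754 on the plus strand for the second of the 2 *Rasgrp2* starts, the only one of its windows with the ETS letters.
Sos1: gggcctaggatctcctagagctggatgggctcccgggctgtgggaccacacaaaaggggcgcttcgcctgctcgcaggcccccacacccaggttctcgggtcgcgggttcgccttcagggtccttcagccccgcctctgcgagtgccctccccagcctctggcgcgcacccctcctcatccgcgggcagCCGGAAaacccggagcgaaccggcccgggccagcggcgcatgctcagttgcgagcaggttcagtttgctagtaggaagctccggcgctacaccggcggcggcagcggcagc
Sos2: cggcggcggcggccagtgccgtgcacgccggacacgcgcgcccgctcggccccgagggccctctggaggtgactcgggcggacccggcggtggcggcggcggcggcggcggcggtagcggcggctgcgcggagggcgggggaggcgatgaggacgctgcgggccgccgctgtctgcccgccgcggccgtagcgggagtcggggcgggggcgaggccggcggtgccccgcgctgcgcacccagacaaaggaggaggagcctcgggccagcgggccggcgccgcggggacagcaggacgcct
Rasgrp2: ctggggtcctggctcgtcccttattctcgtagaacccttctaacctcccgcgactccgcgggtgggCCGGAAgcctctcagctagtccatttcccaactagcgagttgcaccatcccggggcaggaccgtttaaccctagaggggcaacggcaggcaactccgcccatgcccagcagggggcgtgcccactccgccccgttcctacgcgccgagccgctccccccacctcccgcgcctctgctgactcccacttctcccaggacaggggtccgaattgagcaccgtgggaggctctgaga
The ETS letters stand from 61 to 56 bases before the start in *Sos1* and from 184 to 179 bases before it in *Rasgrp2*, and are not in the window of *Sos2*. A window of *Rasgrp3* held them from 77 to 72 bases before the start. In all, 5 of the 12 windows of the set held the ETS letters, beside 14.9% of 32851 promoter windows of the same length, and 0 held the AP-1 letters, beside 7.81%. Genes that rose, fell and did not pass the test were all among the 5, and a match is no evidence that a factor binds there.

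*Rasgrp2* had the largest fall among the exchange factors of the set. Its product, CalDAG-GEFI, responds to calcium, acts mainly on RAP1 and is known best from platelets. The mutant libraries held 843.3, 1154.4, 1296.5 and 772.1 normalized counts, and the wild-type libraries 1689.3, 1676.7, 1344.4 and 1441.5. The groups did not overlap, but library 3 of the mutants and library 3 of the wild types were close. *Rasgrp2* was at 0.661 of its wild-type level in mutant ECs (log2 fold change -0.60 ± 0.16, SE, 95% confidence interval -0.95 to -0.24, adjusted p = 0.0116, edgeR).

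Since *Rasgrp2* is also expressed in blood cells, markers of these cells were measured in the same libraries. The 7 platelet markers that could be tested, of 9, were divided, with *Clec1b* higher, *Ppbp* lower and the other 5 not called, and the sum of the 9 ran from 8.318 to 13.85 RPKM in mutant and from 7.55 to 12.06 in wild-type libraries. *Pf4*, which was not called, had between 26.6 and 121.9 normalized counts in mutant and between 12.2 and 70 in wild-type libraries. *Ppbp* had between 16.6 and 26.5 in mutant and between 26.7 and 51 in wild-type libraries. *Clec1b* had between 123.8 and 163.6 in mutant and between 61.7 and 78 in wild-type libraries. Of 9 lymphocyte markers, 4 could be tested and 1 was lower (*Ms4a1*), with sums from 2.918 to 9.338 RPKM in mutant and from 4.82 to 10.29 in wild-type libraries. Neutrophil markers summed to between 14.22 and 28.23 RPKM and between 15.26 and 35.16, with 1 of 6 tested lower. These 3 sums overlapped between the groups, whereas that of the red blood cell markers did not, and the part of each in the difference of *Rasgrp2* was not tested.

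*Sos1* and *Sos2* encode the exchange factors that the adaptor GRB2 carries to activated receptor tyrosine kinases. *Sos2* had 1919.5, 1940.6, 1806.3 and 1792.2 normalized counts in mutant and 2233.6, 2294.2, 2190 and 2631 in wild-type libraries. All mutant libraries were below all wild-type libraries, and wild-type library 4 was the highest. *Sos2* was at 0.798 of its wild-type level (log2 fold change -0.33 ± 0.07, SE, 95% confidence interval -0.49 to -0.16, adjusted p = 0.00495, edgeR).

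*Sos1* had 2755.2, 2942.4, 2801.4 and 2583.4 normalized counts in mutant and 3088.4, 3153.3, 3218 and 3542.1 in wild-type libraries. Again no mutant library reached the lowest wild-type library. *Sos1* was at 0.852 of its wild-type level (log2 fold change -0.23 ± 0.07, SE, 95% confidence interval -0.38 to -0.08, adjusted p = 0.0196, edgeR). This call was lost without mutant library 1 (adjusted p = 0.0588), mutant library 4 (0.0701) or wild-type library 4 (0.0501), without a filter on low counts (0.0687), and without library 3 of both groups (0.0723), while the direction was kept each time. The ratio of *Sos1* to *Sos2* in RPKM averaged 1.42 ± 0.054 in the mutants and 1.33 ± 0.051 in the wild types (SD, n = 4 each), with overlapping ranges of 1.37 to 1.48 and 1.285 to 1.403.

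*Rasgrp3*, an exchange factor that diacylglycerol activates and that is prominent in endothelium, had 12597.2, 11022, 11575.7 and 11378.3 normalized counts in mutant and 12593, 12765.4, 12483.6 and 14944.6 in wild-type libraries. Mutant library 1 lay within the wild-type range, and wild-type library 4 stood above all others. The log2 fold change was -0.18 ± 0.08 (SE), the 95% confidence interval ran from -0.36 to 0.00032, and the adjusted p of 0.0963 did not pass (edgeR). With upper quartile scaling the log2 fold change was -0.24 (adjusted p = 0.0230), and with library totals alone -0.24 (adjusted p = 0.0227), so that the call depends on the scaling.

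*Rasip1*, on the plus strand of chromosome 7 from 45627488 to 45639093, encodes a protein that binds RAS and RAP1 and is needed in endothelium for vessels to form a lumen, where it works with ARHGAP29. Its normalized counts were 18177.2, 16060.9, 14700.7 and 13912.1 in mutant and 15385.7, 15374.5, 14433.2 and 16135.2 in wild-type libraries. The mutant libraries spread on both sides of the wild-type range. The log2 fold change was 0.04 ± 0.09 (SE, 95% confidence interval -0.17 to 0.24, adjusted p = 0.777, edgeR), and it turned to -0.03 with upper quartile scaling and to -0.02 with library totals. Of the 3202 exon bases of *Rasip1*, 42.91% also belong to *Izumo1*, *Gm45437* or the antisense gene A030001D20Rik, of which the most counted had a mean of 1166 counts, so its level is less certain than those of the other genes. Of these, A030001D20Rik was lower in mutant ECs by 0.59 on the log2 scale (adjusted p = 0.0195, edgeR) and *Gm45437* by 0.78 (adjusted p = 0.00775, edgeR), and their part in the value of *Rasip1* was not tested.

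**Figure D2:**
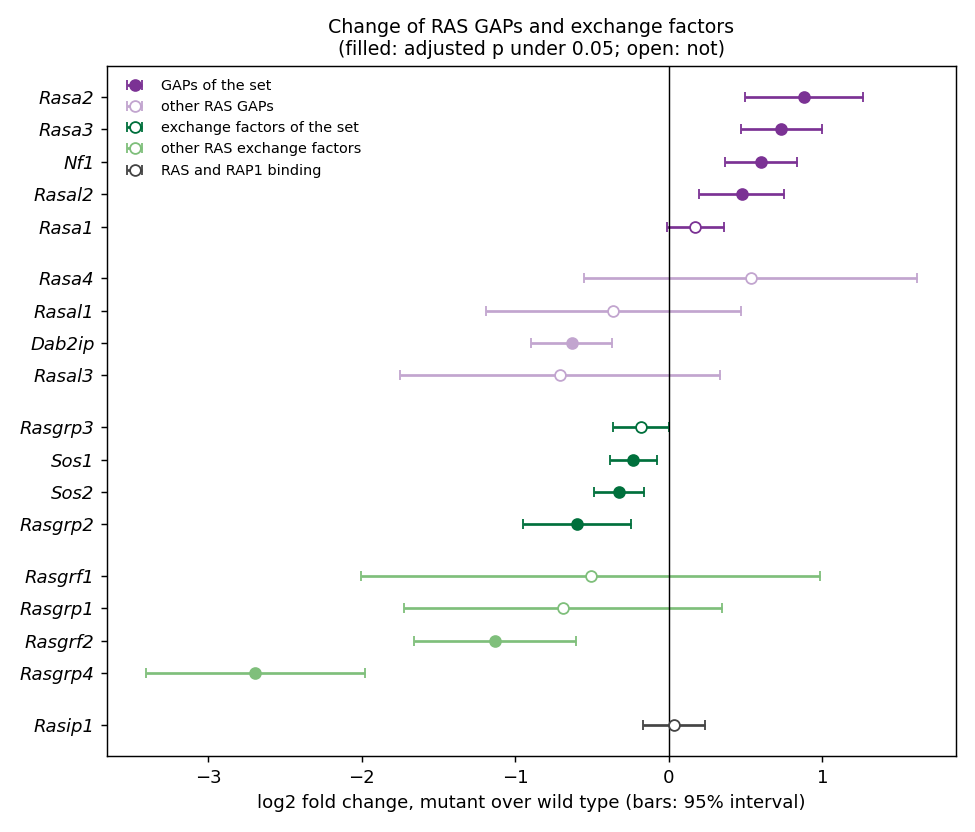
Log2 fold changes of mutant over wild-type ECs (horizontal axis) with 95% confidence intervals for the 10 genes of the set and for other RAS GAPs and exchange factors (paler colours), filled where the adjusted p was under 0.05. The filled GAPs of the set lie between 0.48 and 0.88, its filled exchange factors between -0.60 and -0.23, and the filled genes among the other GAPs and exchange factors lie below 0.

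Compared per length of merged exon, the 10 genes covered a wide range in wild-type ECs. *Rasip1* was highest at 161.3 ± 7.33 RPKM (SD, n = 4), above 98.62% of the genes tested, and *Rasgrp3* followed at 90.35 ± 8.02 (SD, n = 4). *Rasa1* was the most abundant of the GAP genes at 16.38 ± 1.46 RPKM (SD, n = 4), ahead of *Sos1* at 12.28 ± 0.761 (SD, n = 4) and *Sos2* at 9.249 ± 0.793 (SD, n = 4). *Rasal2* (7.505 ± 0.433, SD, n = 4), *Rasa3* (6.392 ± 0.473, SD, n = 4) and *Nf1* (5.819 ± 0.755, SD, n = 4) stood close together, and *Rasgrp2* (4.184 ± 0.468, SD, n = 4) and *Rasa2* (2.041 ± 0.515, SD, n = 4) closed the order. Among neighbours in this order, only the ranges of *Rasa3* and *Nf1* overlapped. Merged exons take in every annotated isoform, so that RPKM understates genes whose long exons are little used. *Rasa2* (15856 exon bases), *Nf1* (15820), *Rasal2* (13740) and *Rasgrp2* (12384) have the longest merged exons of the set.

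In mutant ECs, *Rasip1*, *Rasgrp3* and *Rasa1* remained the highest, at 165.3 ± 19.7, 79.72 ± 4.63 and 18.44 ± 1.47 RPKM (SD, n = 4 each). *Rasa3* moved from rank 7 to rank 4 of the 10 genes, at 10.62 ± 1.87 RPKM (SD, n = 4), and *Sos2* from rank 5 to rank 8, at 7.379 ± 0.302 (SD, n = 4). The mutant levels of *Rasa3*, *Sos1* and *Rasal2* were not separated, and those of *Rasal2* and *Nf1* overlapped as well. *Rasa2*, at 3.748 ± 0.584 RPKM (SD, n = 4), passed *Rasgrp2*, at 2.766 ± 0.680 (SD, n = 4), but their ranges overlapped.

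**Figure D3:**
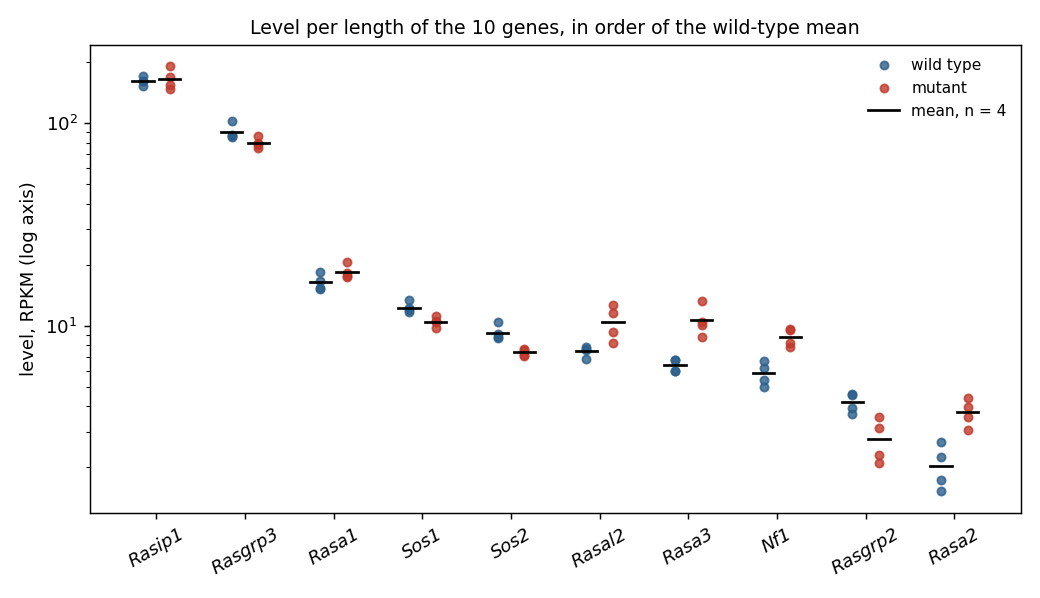
Level per length (RPKM, log axis) of the 10 genes in wild-type (blue) and mutant (red) libraries, ordered by the wild-type mean, with black lines at the mean of 4 libraries. *Rasip1* and *Rasgrp3* lie far above the rest in both groups, at 161.3 and 90.35 RPKM in wild-type ECs, and *Rasa2* lies lowest in wild-type ECs at 2.041.

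Summed over the 5 GAP genes, the level averaged 52.06 ± 4.44 RPKM (range 46.86 to 57.25) in mutant ECs, and 38.14 ± 3.04 (range 35.48 to 42.22) in wild-type ECs (SD, n = 4 each). Over the 4 exchange factor genes, the sum averaged 100.3 ± 4.43 RPKM (range 96.85 to 106.5) in mutant ECs, and 116 ± 9.39 (range 109.9 to 130) in wild-type ECs (SD, n = 4 each). The groups overlapped in neither sum. The GAP sum per exchange factor sum averaged 0.519 ± 0.038 (range 0.4662 to 0.5541) in mutant ECs, and 0.329 ± 0.015 (range 0.3187 to 0.3516) in wild-type ECs (SD, n = 4 each). *Rasgrp3* made up 79.43% ± 1.58 of the exchange factor sum in mutant and 77.82% ± 0.604 in wild-type ECs (SD, n = 4 each). Without it the ratio was 2.54 ± 0.334 and 1.483 ± 0.082 (SD, n = 4 each). These sums describe transcripts and were given no test, since the genes were chosen with results of these data known. They leave out the further RAS GAP and exchange factor genes described below, and count *Rasgrp2*, whose product acts mainly on RAP1. Of 4 further RAS GAP genes, none was higher and 1, *Dab2ip*, was lower. *Dab2ip* averaged 6119 normalized counts in mutant and 9493 in wild-type ECs. Of 4 further exchange factor genes, none was higher and 2 were lower. The sums and ratios thus hold only for the GAP and exchange factor genes of the set.

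The sample descriptions carry 3 prefixes, one shared by libraries 1 and 2 of both groups, one by library 3 of both and one by library 4 of both, and the differences were recomputed within each. The 4 GAP genes that rose were higher in the mutants within every prefix, and all 4 exchange factor genes were lower. For the 7 genes whose groups did not overlap, this direction was fixed in advance, since any split of the same libraries gives it. Only *Rasgrp3* of these genes could have differed. For *Rasa2*, the difference in mean log2 normalized counts was 1.21 in the first prefix (2 against 2 libraries), 0.44 in the second and 0.73 in the third (1 against 1 library each). *Rasal2* differed by 0.65, 0.44 and 0.09, and *Nf1* by 0.74, 0.41 and 0.52. *Rasgrp2* differed by -0.77, -0.05 and -0.90, so that it was almost level between the 2 libraries numbered 3, which also held the most microglia and macrophage markers of their groups. *Rasa1* (0.31, 0.08 and -0.01) and *Rasip1* (0.15, 0.03 and -0.21) changed direction between prefixes.

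**Figure D4:**
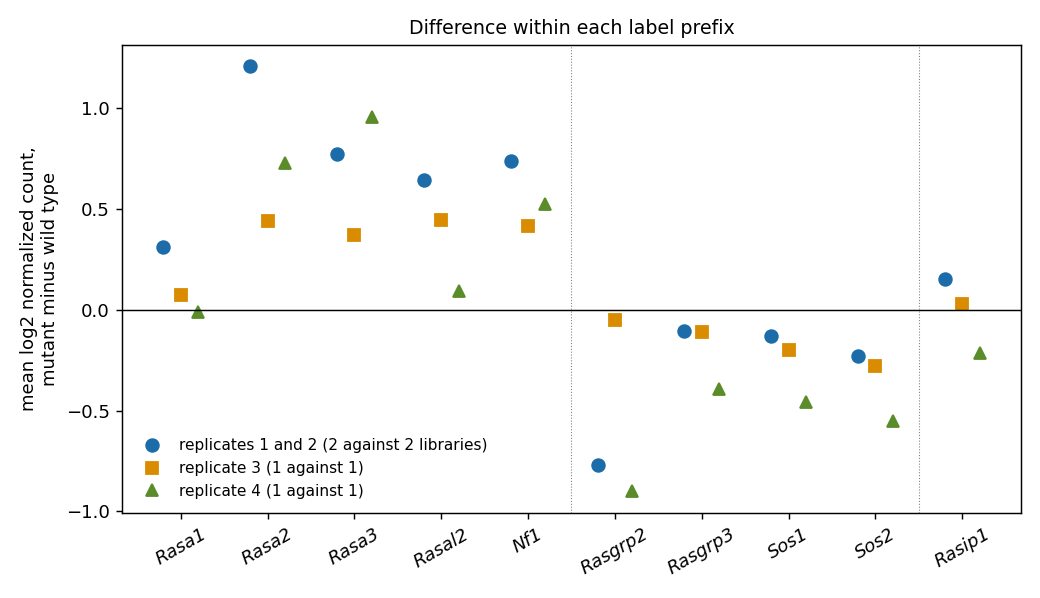
Difference in mean log2 normalized counts, mutant minus wild type (vertical axis), of each gene within the 3 label prefixes, which hold libraries 1 and 2, library 3 and library 4 of both groups. *Rasa2*, *Rasa3*, *Rasal2* and *Nf1* lie above 0 and the 4 exchange factors below 0 in each prefix, with *Rasal2* at 0.09 for library 4 and *Rasgrp2* at -0.05 for library 3 the closest to it among these 8 genes. For all of them but *Rasgrp3* the side was fixed in advance, since the groups did not overlap.

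Other genes of the pathway, taken from 6 lists of 59 genes in all, did not share one direction: 12 were higher, 21 lower and 26 not called, to be read against the 21.5% of all genes that were higher and the 22.9% that were lower, as are the counts of each list. Among 4 further RAS GAP genes, none was higher, 1 was lower and 3 were not called, with a median log2 fold change of -0.50. *Dab2ip*, which encodes a GAP that also inhibits other signalling proteins, had between 4881.4 and 7157.5 normalized counts in mutant and between 8416.7 and 10526.1 in wild-type libraries (log2 fold change -0.63, adjusted p = 0.00166, edgeR). *Rasal3*, a RAS GAP of blood cells, had between 35.5 and 146.3 in mutant and between 67.5 and 212.7 in wild-type libraries, with library 3 the highest of each group, and did not pass (log2 fold change -0.71, adjusted p = 0.246, edgeR). Of the 9 RAS GAP genes in both lists, 4 were higher and 1 lower.

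Among 4 further exchange factor genes, 2 were lower and 2 not called (median -0.91). *Rasgrp4*, a diacylglycerol-responsive exchange factor known from mast cells and other myeloid cells, had 98.8, 218.9, 298.1 and 100.1 normalized counts in mutant and 1259.1, 1340.3, 1022.8 and 1001.8 in wild-type libraries. The groups were far apart, with a log2 fold change of -2.69 ± 0.32 (SE, adjusted p = 0.00012, edgeR). The sums of the neutrophil and of the microglia and macrophage markers, given above, overlapped between the groups, and their part in this difference was not tested. *Rasgrf2*, a calcium-responsive exchange factor, was low in both groups, with between 44.3 and 65.2 normalized counts in mutant and between 92.1 and 169.8 in wild-type libraries (log2 fold change -1.14, adjusted p = 0.00321, edgeR).

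All 5 genes of RAS GTPases described here passed the test, 2 higher and 3 lower, and none by a log2 fold change over 1, where 44.4% of all genes passed in either direction. Those of smallest adjusted p were *Rras2*, at -0.94 (adjusted p = 0.000111, edgeR), and *Mras*, at -0.85 (adjusted p = 0.00149, edgeR), both members of the R-RAS and M-RAS branch. *Hras* and *Nras*, named here after their values were seen, were higher by small amounts, 0.25 and 0.26 on the log2 scale.

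Of 17 genes listed as adaptors and recruiters, only some encode proteins that bring GAPs or exchange factors to the membrane. In this list 6 were higher, 3 lower and 8 not called (median 0.04), beside 44.4% of all genes called. *Spred3*, of the SPRED family that recruits neurofibromin, had 1876.5, 1430.8, 1298.7 and 1740 normalized counts in mutant and 529.6, 548.9, 531.7 and 457.7 in wild-type libraries. The 4 wild-type libraries were nearly level and far below the mutants, and the log2 fold change was 1.62 ± 0.12 (SE, adjusted p = 8.19e-06, edgeR). Its relatives were named after their values were seen: *Spred1* rose by 0.98 on the log2 scale, while *Spred2* did not pass (-0.19, adjusted p = 0.0544, edgeR). *Dok3*, of the DOK family of docking proteins, was higher by 1.03 (adjusted p = 0.000628, edgeR). *Dok4*, of the same family, fell the most of the list, from between 8929.3 and 11216.9 normalized counts in wild-type to between 1403.1 and 2780.3 in mutant libraries (log2 fold change -2.31 ± 0.20, SE, adjusted p = 1.69e-05, edgeR). *Gab1*, a scaffold that binds GRB2 and the phosphatase PTPN11, was lower by 0.82 on the log2 scale and was likewise named after its values were seen.

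Of 11 genes that make or consume diacylglycerol, the activator of *Rasgrp3*, 1 was higher, 5 lower and 5 not called (median -0.26), beside 44.4% of all genes called. The 2 of smallest adjusted p were the diacylglycerol kinases *Dgkq* (-0.53, adjusted p = 0.000934, edgeR) and *Dgki* (-0.73, adjusted p = 0.00102, edgeR), of which *Dgki* had a mean of only 205.4 normalized counts in wild-type ECs. *Plcg2*, a phospholipase that releases diacylglycerol and was named after its values were seen, was lower by 0.89 on the log2 scale.

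Of 18 genes for RAP1 and the partners of RASIP1, 3 were higher, 7 lower and 8 not called (median -0.13), beside the same share of all genes. *Rapgef2*, an exchange factor for RAP1, was lower by 0.94 on the log2 scale (adjusted p = 0.000156, edgeR), and so was *Sipa1*, a GAP for RAP1, by 0.76 (adjusted p = 0.000278, edgeR). Genes that fell were thus found on both sides of the RAP1 switch. Although *Rasip1* itself did not pass, its partner *Arhgap29* had between 17588.5 and 24052.3 normalized counts in mutant and between 11402 and 14982.6 in wild-type libraries (log2 fold change 0.74 ± 0.11, SE, adjusted p = 0.000554, edgeR). *Heg1*, a membrane receptor that holds RASIP1 at endothelial junctions, had between 8870.7 and 11518.5 in mutant and between 13283.4 and 17226.6 in wild-type libraries (log2 fold change -0.66 ± 0.11, SE, adjusted p = 0.000707, edgeR). *Arhgap29* and *Heg1* were named after their values were seen.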

How the data were processed

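RNA from brain ECs of 8 pups was sequenced by the authors. Their reads were trimmed (Trimmomatic), aligned to GRCm38 (STAR) and deposited as whole-number counts per gene, without normalization. The counting program, annotation release and strand setting are not given in the sources used here. Deposited values divided by a DESeq2 size factor were not used. Symbols were matched for 48970 of 49315 gene identifiers.

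The tests used R 4.3.3, edgeR 4.0.16 and limma 3.58.1. Libraries were scaled by TMM, genes filtered with filterByExpr (minimum count 10), and groups compared with glmQLFit and glmQLFTest without covariates. Genes were called at a Benjamini-Hochberg adjusted p under 0.05 over all genes tested. Normalized counts are TMM-scaled counts at the mean effective library size, and RPKM uses merged exon length (overlaps by GenomicRanges 1.54.1). The code was tested on simulated data.

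Libraries of a group differed by more than sampling noise (chi-square per degree of freedom 7.25 to 41.6) and counted as separate pups. Besides the 10 genes, a rule named at most 4 genes a list: those called with an absolute log2 fold change over 1 whose higher group averaged 100 or more normalized counts, else the 2 of smallest adjusted p. Other genes of the lists are marked as named after their values were seen. The members and lists were chosen with earlier results of these data known, and a few listed genes are not reported here.

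Alternatives were DESeq2 1.42.0, 3 other scalings, 2 other filters, replicate number or label prefix as a block, and each library left out. Leaving out library 3 of both groups was added after seeing the data.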

Additional observations from a re-analysis of the deposited data

Results flagged for a closer look

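A library was singled out where its gap to the nearest library of its group exceeded Dixon's 95% critical value for 4 samples. This was so in 2 of the 48 groups tested, and chance alone singles out about 1 in 20. *Rasgrp3* in wild-type library 4 had 14944.6 normalized counts, with a gap of 0.886 of the group's range. *Mras* in mutant library 3 had 215 normalized counts, a gap of 0.833. Each was the highest value of its group for that gene.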

How the results depend on the processing

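The number of the 10 genes past an adjusted p of 0.05 was 7 with DESeq2, relative log expression scaling, the stricter filter (mean of at least 100 counts) and the label prefix as a block, 8 with upper quartile scaling or library totals, 6 without a filter or without library 3 of both groups, and 6 to 7 with single libraries left out. The number with an absolute log2 fold change over 1 as well was 0, but 1 (*Rasa2*) without library 3 of both groups and 0 to 1 with single libraries left out, the 1 without wild-type library 4. *Rasip1* turned to -0.029 with upper quartile scaling, -0.022 with library totals and -0.017 without mutant library 1, in a range of -0.017 to 0.11 over single libraries left out. No other gene of the set changed direction, and *Rasa2*, *Rasa3*, *Rasal2*, *Nf1*, *Rasgrp2* and *Sos2* kept their calls in every alternative run. The median log2 fold change of all genes tested moved as well, from -0.025 to -0.087 with upper quartile scaling and to -0.079 with library totals. The cause of the shifts between runs was not tested. With the replicate block, 7 of the 10 genes and 36 of the pathway genes were called, against 33 without it, and no call among the 10 changed. With the label prefix as a block 39 pathway genes were called, and with single libraries left out 28 to 34. Same-numbered libraries deviated from their group means with correlations of 0.20, 0.21, 0.29 and 0.02, and mutant library 4 correlated best with wild-type library 3 (0.38), so the numbers were not treated as pairs. Control pups had been matched to mutants by litter, but no label says that a number or prefix marks a litter.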
